A study of Mus musculus with 18 samples.

Results

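Levels of 10 S100 genes were followed through the healing of the mouse carotid artery after wire injury. The genes were S100a1, S100a4, S100a6, S100a8, S100a9, S100a10, S100a11, S100a13, S100a16 and S100b, taken by symbol from the 35655 genes of the count table. All animals were labelled WT, of mouse strain C57/BL6. The study's methods give male mice that were 11 weeks old at surgery, with a wire passed through the left carotid only. Libraries came from day 0, labelled as taken before injury (4 libraries), and from 7 (4), 14 (3), 21 (4) and 28 (3) days after injury. Sections with the outer elastic lamina and neointima were cut out by laser, up to 70 per library, and 3′ ends of polyadenylated RNA were sequenced (MACE). The right carotid also served as a control in the study, and 3 day 0 libraries share the number that ends their description with a day 21 library. Neither the labels nor the methods say if the day 0 arteries came from the intact side of operated animals. The labels do not say whether each library is a separate animal, so p-values measure the spread between libraries only.

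S100 proteins are small calcium-binding proteins of the EF-hand type that mostly act as dimers. Inside cells they bind partners such as annexins and non-muscle myosin, and some are released and act on receptors such as RAGE (Ager) and Tlr4. S100a8 and S100a9 pair into calprotectin, an abundant protein of neutrophils and of some monocytes, whereas S100b is best known from glia.

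Of the members, 9 lie on chromosome 3 and 1, S100b, on chromosome 10 in the GENCODE annotation of GRCm39. S100a8 (chr3:90567118-90578128, plus strand) and S100a9 (chr3:90599931-90603071, minus strand) are neighbours 21.8 kb apart, and their levels moved most alike of all pairs of members (Pearson r = 0.98 over 18 libraries on the log2 CPM scale, a description over libraries that share their day). Their promoters are shown for that reason, as the 250 bases before the start of each gene in RefSeq, in the GRCm38.p6 build, whose coordinates differ from those of GRCm39. Capitals mark matches to TATAAA on the gene's strand, and on either strand to TGANTCA (AP-1), TTGCNNCAA (C/EBP) and GAGGAA (PU.1).
S100a8 (chr3:90668821-90669070, plus strand): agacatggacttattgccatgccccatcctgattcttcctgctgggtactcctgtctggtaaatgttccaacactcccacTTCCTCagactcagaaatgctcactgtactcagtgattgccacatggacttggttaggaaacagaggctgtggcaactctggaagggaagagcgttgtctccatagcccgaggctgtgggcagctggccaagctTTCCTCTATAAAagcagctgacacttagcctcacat
S100a9 (chr3:90695722-90695971, minus strand): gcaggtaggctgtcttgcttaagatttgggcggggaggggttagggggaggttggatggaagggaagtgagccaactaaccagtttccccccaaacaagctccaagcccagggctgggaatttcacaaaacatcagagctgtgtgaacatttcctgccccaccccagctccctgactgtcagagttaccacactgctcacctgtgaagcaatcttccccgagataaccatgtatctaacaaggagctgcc
The S100a8 promoter held TATAAA starting 30 bases before the gene and GAGGAA, read on the opposite strand, starting 170 and 36 bases before it. None of the 4 motifs lay in the 250 bases of S100a9. Among 32851 promoters of that length, 7.59% held TATAAA, 6.75% TGANTCA, 1.74% TTGCNNCAA and 23.25% GAGGAA. Among the members, 9 of 10 matched a promoter in the table, the exception being S100a10. TATAAA was also found in S100a4 (31 bases before the start), and TTGCNNCAA in none of the 9.

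Library totals were 440675 to 878310 counts, with a median of 659166, and 10312 genes passed the filter on low counts. All 10 members passed it, of which S100a8, S100a9 and S100b did so through the few libraries where they are high. Levels are CPM, counts relative to the TMM-scaled total of the library, and 3 counts, the floor used here, equal 3.55 to 6.98 CPM. Since MACE reads transcript ends, CPM is compared between days for a gene and not between genes. In this tissue fewer cells of a type and less RNA per cell cannot be told apart. Contractile smooth muscle markers, which define the media, summed to 31861 to 37222 CPM on day 0 and to 1518 to 7016 CPM on day 7, and they had counts in every library.

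At day 7, 4 of the 10 members rose against day 0 and none fell: S100a8, S100a9, S100a4 and S100a10 (edgeR, adjusted p under 0.05). Of all genes tested, 11.3% were higher and 8.53% lower. S100a8 and S100a9 passed the filter only through injured libraries where they are high. Their calls are thus not to be read against these shares. The median log2 fold change was 0.36 over the members, with S100a8 and S100a9 fitted or at their bounds, and 0.07 over all genes tested. The other 6 members gave log2 fold changes between -0.91 and 0.38, none of which passed the test.

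S100a8 and S100a9, the calprotectin pair, were at or near 0 before injury. S100a8 held 0, 2, 0 and 0 counts in the day 0 libraries, and S100a9 held 0, 0, 0 and 2. A count of 0 there allows up to 3.59 to 4.47 CPM. On day 7 S100a8 stood at 331, 104, 199 and 95.3 CPM. S100a9 stood at 308, 70.1, 165 and 56.5 CPM. Every day 7 library was above every day 0 library for both genes. Both passed the edgeR test (adjusted p = 0.00184 for S100a8 and 0.00391 for S100a9). Both had passed the filter on low counts only through injured libraries where they are high. Their direction against day 0 was thus largely set by the filter. Against the floor of 3 counts in each day 0 library, the day 7 mean was at least 44.3-fold higher for S100a8 and at least 36.5-fold higher for S100a9. Counting error alone is covered by these floors.

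After day 7 the pair was high in 1 library of each day and near the floor in the rest. On day 14 S100a8 was 4.80, 86.5 and 7.83 CPM and S100a9 was 4.80, 70.6 and 2.61 CPM. On day 21 S100a8 was 7.10, 4.04, 242 and 2.33 CPM, and S100a9 was 4.73, 0, 240 and 2.33 CPM. On day 28 S100a8 was 0, 0 and 133 CPM, and S100a9 was 0, 1.65 and 144 CPM. The high libraries were replicate 2 of day 14, replicate 3 of day 21 and replicate 3 of day 28. Replicate 3 of day 21 lay inside the day 7 range for both genes, and its 3 companions were below every day 7 library.

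**Figure D1:**
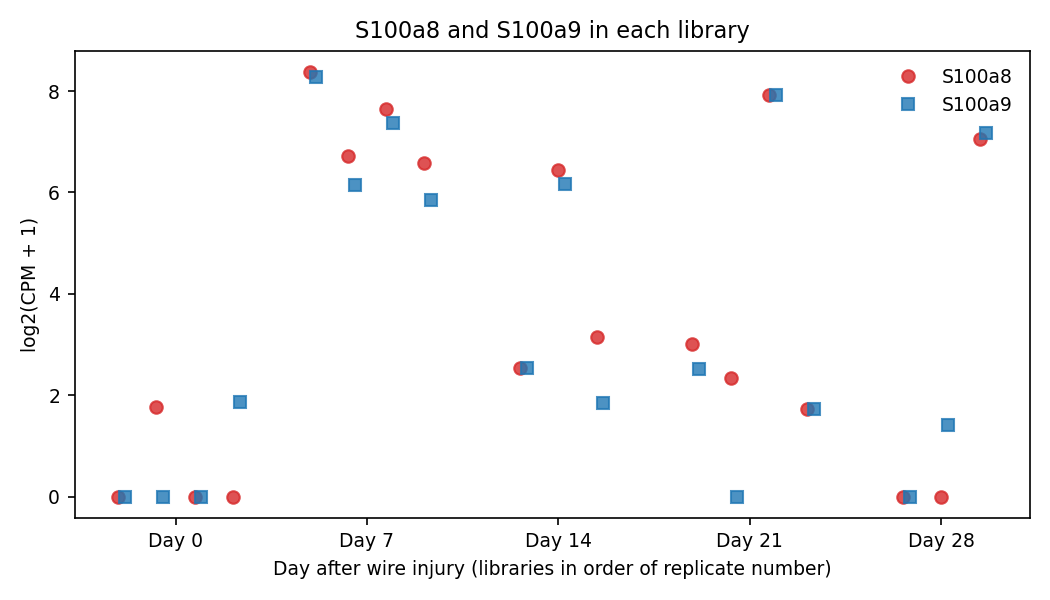
The level of S100a8 (circles) and S100a9 (squares) in each of the 18 libraries, as log2(CPM + 1) on the vertical axis, by day after injury. The 4 day 7 libraries and 1 library on each later day are high, for S100a8 between 86.5 and 331 CPM, and the others hold at most 7.83 CPM.

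The tests on the later days rest on those libraries. On day 21 both were called higher than day 0 (edgeR adjusted p = 0.0263 for S100a8 and 0.0357 for S100a9), and the groups overlapped. Their day 21 means were 15.5-fold and 15-fold the day 0 floor of 3 counts and were set by replicate 3. The day 21 medians were 5.57 CPM for S100a8 and 3.53 CPM for S100a9. Without replicate 3 of day 21, the log2 fold change of S100a8 went to 2.53 (edgeR adjusted p = 0.525) and that of S100a9 to 1.71 (edgeR adjusted p = 0.74). The day 21 calls of the pair were also lost without any single day 0 library, with edgeR adjusted p of 0.0648 to 0.0745 for S100a8 and 0.0758 to 0.0991 for S100a9. With the replicate number as a block the edgeR adjusted p was 0.0762 for S100a8 and 0.129 for S100a9, although no label says that equal replicate numbers pair libraries. With the number shared by day 0 and day 21 libraries as a random block (voom) the limma adjusted p was 0.147 and 0.296. Days 14 and 28 gave no call for the pair (edgeR adjusted p of 0.12 to 0.198 against day 0). Without the filter on low counts, edgeR called both S100a8 and S100a9 higher than day 0 on days 14 and 28 (adjusted p of at most 2.89e-09) and lower than day 7 on days 14, 21 and 28 (adjusted p of at most 0.0325). Only 1 library was high on each of these days, so such small p-values do not stand for agreement between libraries. DESeq2 called neither gene against day 0 on day 14 or 28. Without replicate 1 of day 28, which held 0 counts of either, both passed on day 28 (edgeR adjusted p = 0.0442 and 0.0489). Without replicate 3 of day 28, both were lower on day 28 than on day 7 (edgeR adjusted p = 0.0127 for S100a8 and 0.0296 for S100a9), a comparison that gave 0.28 and 0.429 with it. Day 21 against day 7 went likewise from 0.481 and 0.597 to 0.0164 and 0.0186 without replicate 3 of day 21.

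Where the pair was high, the share of S100a8 in its counts is given to compare libraries, not the levels of the genes. Whether this share differed between libraries was not tested. Of the counts of both genes, S100a8 held 51.8% in replicate 1 of day 7 (exact binomial 95% interval 46.5% to 57.1%), and 48.0% (40.3% to 55.7%) to 62.8% (52.2% to 72.5%) over the 4 day 7 libraries and the 3 later high ones. In replicate 3 of day 21 the share was 50.2% (44.3% to 56.0%).

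The genes whose log2 CPM followed S100a8 most closely over the 18 libraries were S100a9 (Pearson r = 0.98), Clec4d (r = 0.93), a lectin receptor of myeloid cells, and Hdc (r = 0.92), the enzyme that makes histamine. For S100a9 they were S100a8, Hdc (r = 0.94) and Slpi (r = 0.93), a secreted protease inhibitor. Of the list of 14 neutrophil markers, 5 passed the filter and 4 of these were higher on day 7: Csf3r, the G-CSF receptor (day 0 all at 0, 40.1 CPM on day 7), Lcn2, Hdc and Cxcr2. Csf3r, Lcn2 and Hdc had 0, 5 and 0 counts on day 0 and passed the filter only through injured libraries where they are high. Their direction against day 0 was thus largely set by the filter. Cxcr2 had counts in every library, day 0 included, so the list is also given without it. The 13 others summed to 0 to 17.9 CPM on day 0 and 98.5 to 735 CPM on day 7. Of the 735 CPM, in replicate 1 of day 7, Lcn2 made up 623 CPM, and it was at 0 in replicate 3 of day 7. Ngp went the other way, with 9 counts on day 0 and 0 on days 7, 14, 21 and 28. Ly6g, a surface protein of mature neutrophils, had 1 count in all libraries, and Elane and Mpo, granule genes read mainly in their marrow precursors, had 0. Hbb-bs, a globin gene of red cells, was 121, 1057, 1043 and 1676 CPM on day 7 and 26.8 to 233 CPM on day 0. Replicate 1 of day 7, the library with the most S100a8 and S100a9, was inside the day 0 range for Hbb-bs, as were the 3 later high libraries, at 30.0, 62.5 and 70.3 CPM.

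The 3 later high libraries differed in these markers. Replicate 2 of day 14 held 9 of the 13 and summed to 125 CPM, against 3.20 and 17 CPM in the other two. Replicate 3 of day 21 held 5 and summed to 72.4 CPM, against 8.28 to 18.2 CPM. Replicate 3 of day 28 held only Hdc, with 5 counts, and had 0 counts of Csf3r, Lcn2, Mmp8, Mmp9 and Retnlg, while Clec4d was at 52.7 CPM and Slpi at 22.4 CPM. Macrophage markers, 12 of 12 of which were higher on days 7, 14 and 21, summed to 799 to 1146 CPM on day 28, with 3 of 12 called. The part of any of these cells in the S100a8 and S100a9 levels was not tested.

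**Figure D2:**
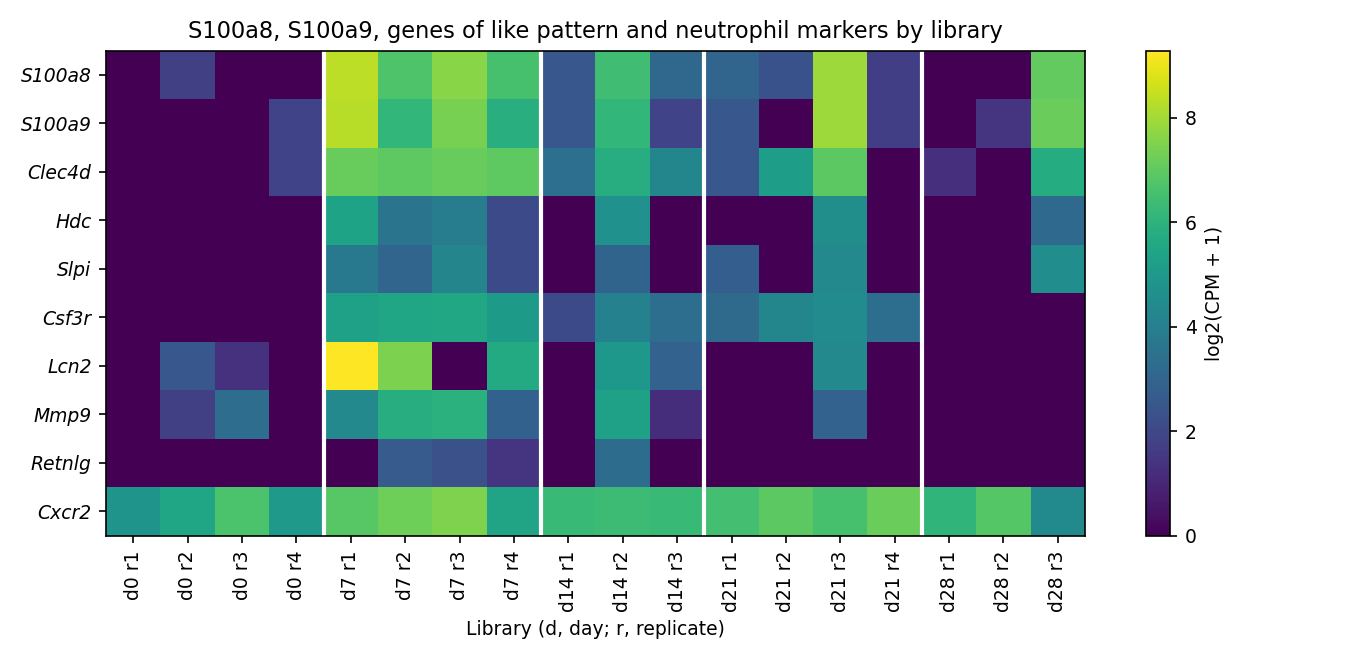
Heat map of S100a8, S100a9, the genes of most like pattern (Clec4d, Hdc, Slpi) and 5 neutrophil markers beside Hdc (rows) in the 18 libraries (columns, d for day and r for replicate), coloured by log2(CPM + 1). Replicate 3 of day 28 is high for S100a8 and S100a9 and holds Clec4d at 52.7, Slpi at 22.4 and Hdc at 7.99 CPM. It is at 0 for Csf3r, Lcn2, Mmp9 and Retnlg, and Cxcr2 has counts in every library.

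S100a4 (chr3:90511074-90513354), a partner of non-muscle myosin found in fibroblasts and leukocytes, rose on day 7 and was not called against day 0 on any later day. It was 1072, 788, 531 and 839 CPM on day 0. On day 7 it was 1955, 1364, 1946 and 1740 CPM, above every library of every other day. It was 720, 1009 and 1247 CPM on day 14, 646, 511, 628 and 575 CPM on day 21, and 666, 635 and 825 CPM on day 28. The means were 807 ± 222 (SD, n = 4) CPM on day 0 and 1751 ± 277 (SD, n = 4) CPM on day 7, a log2 fold change of 1.12 (SE 0.22, edgeR adjusted p = 0.000713). The order of the means was day 7, 14, 0, 28 and 21, and all neighbours after day 7 in it overlapped. Gm42674, which had 0 counts, shares 250 of the last 300 bases of S100a4 on the same strand.

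S100a10 (chr3:93462213-93474510), which forms a complex with annexin A2 at membranes, had the same order of change on day 7. It was 377, 276, 301 and 224 CPM on day 0 and 604, 602, 1045 and 452 CPM on day 7, with no overlap. Its log2 fold change was 1.20 (SE 0.28, edgeR adjusted p = 0.00327). It then stood at 285, 462 and 378 CPM on day 14, at 261, 242, 214 and 221 CPM on day 21 and at 238, 86.0 and 153 CPM on day 28. Day 28 held the lowest library, and against day 0 the log2 fold change there was -0.88 (SE 0.31, edgeR adjusted p = 0.169). Without replicate 1 of day 28 this passed, at -1.29 (edgeR adjusted p = 0.032). Over the 18 libraries S100a10 followed S100a4 with r = 0.78.

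Beside these rises, all 5 proliferation markers and all 12 macrophage markers were higher on day 7 and 7 of 7 tested contractile smooth muscle markers were lower. On day 14 it was 12 macrophage, 0 proliferation and 4 contractile markers, on day 21 the same counts, and on day 28 it was 3, 0 and 1. Macrophage markers summed to 114 to 523 CPM on day 0 and 4792 to 6999 CPM on day 7. Of the tested fibroblast markers 1 of 6 was higher and 3 lower on day 7, of the endothelial 2 of 5 higher and 1 lower, of the adipocyte 0 of 2 higher and 1 lower, and of the striated muscle markers neither of 2 was called. The part of any of these cells in the S100a4 and S100a10 levels was not tested.

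Against day 0, the later days gave fewer calls. On day 14, 0 members were called by edgeR or DESeq2, and 3 (S100a8, S100a9 and S100b) had an unadjusted p under 0.05. Of all genes, 17.2% had an unadjusted p under 0.05, and 4.8% were called higher and 1.42% lower after adjustment. On day 21, 2 were higher (the calprotectin pair) and 1 lower (S100a6), where 5.92% of all genes were higher and 2.93% lower. The calprotectin pair passed the filter only through injured libraries where it is high, so its calls are not to be read against these shares. On day 28, 0 were called by either tool, and 4 (S100a8, S100a9, S100a10 and S100a11) had an unadjusted p under 0.05. There 14.7% of all genes had an unadjusted p under 0.05, and 0.97% were called higher and 0.369% lower after adjustment. The median log2 fold changes of the members were 0.20, 0.04 and -0.12 on days 14, 21 and 28, and those of all genes 0.05, 0.07 and -0.01.

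**Figure D3:**
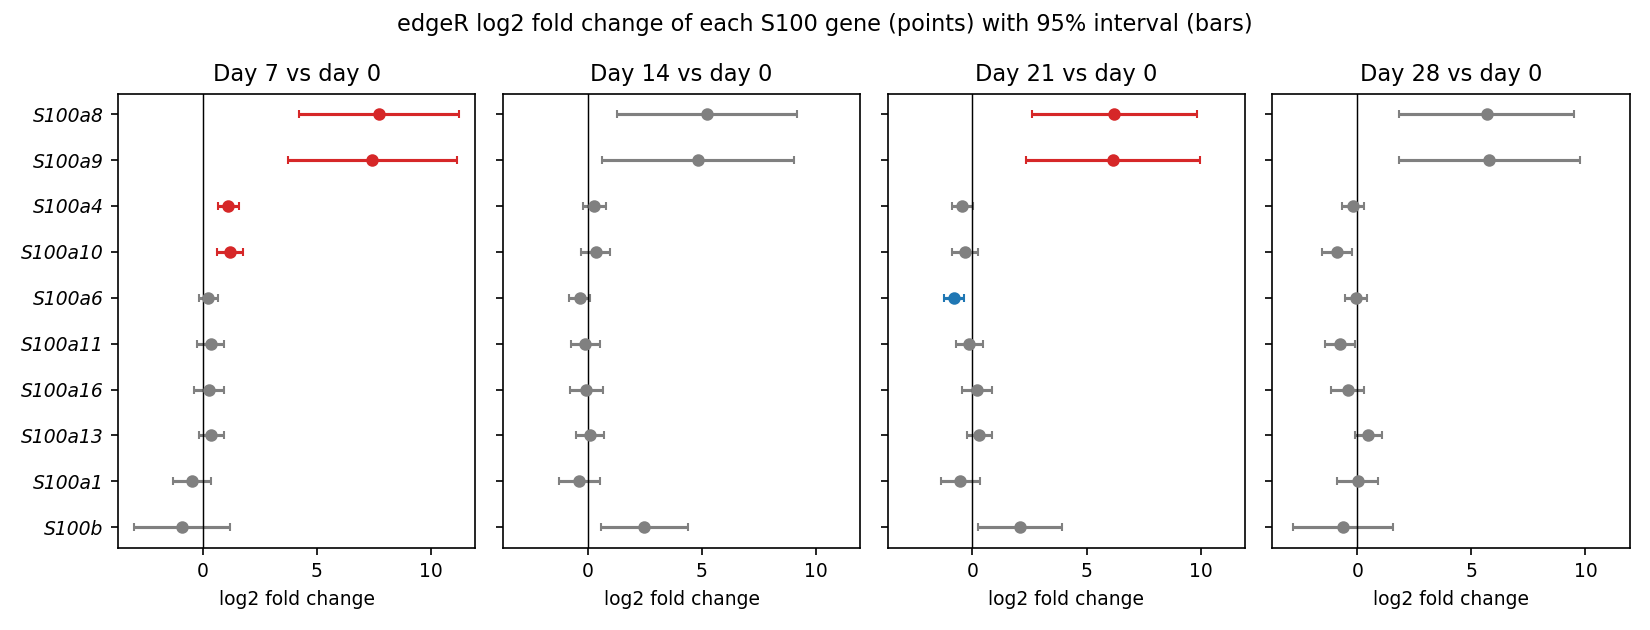
The edgeR log2 fold change of each S100 gene (rows) against day 0, with its 95% interval, on days 7, 14, 21 and 28; red and blue mark genes called higher and lower, grey those not called. The call of 4 genes on day 7 and 3 on day 21 is visible, and the points of S100a8 and S100a9 depend on the prior count because day 0 was at the floor.

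S100a6 (chr3:90520140-90535843), also called calcyclin, was the only member called lower than before injury. It was 3905, 2814, 3036 and 2476 CPM on day 0 and 3673, 2629, 4740 and 3468 CPM on day 7, groups that overlapped. It was 2481, 2243 and 2508 CPM on day 14. On day 21 it was 1342, 2299, 1880 and 1531 CPM, below every day 0 library, and on day 28 it was 2650, 2984 and 3217 CPM. The day 21 mean of 1763 ± 421 (SD, n = 4) CPM was lower than the day 0 mean of 3058 ± 610 (SD, n = 4) CPM, with a log2 fold change of -0.79 (SE 0.21, edgeR adjusted p = 0.0171). The call was lost without replicate 1 of day 0 and without replicate 1 or 4 of day 21, with edgeR adjusted p of 0.0524 to 0.0737. In the normalised signal deposited by the authors, days 0 and 21 overlapped. There replicate 2 of day 21 (1657) was above replicates 2 and 4 of day 0 (1607 and 1355). The log2 ratio of the day means was -0.68 in that signal, with no test. On day 28 the log2 fold change was -0.05 (SE 0.22, edgeR adjusted p = 0.949).

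Falls from the day 7 level were tested between injured days. From day 7 to day 14, edgeR called 0 members and DESeq2 called S100a4, where edgeR called 1.33% of all genes higher and 0.33% lower. An unadjusted p under 0.05 was found for 4 members (S100a4, S100a6, S100a10 and S100b) and for 10.7% of all genes. From day 7 to day 21, 3 fell and none rose, where 4.03% of all genes were higher and 3.23% lower. These were S100a4 (log2 fold change -1.57, SE 0.23, edgeR adjusted p = 0.000111), S100a10 (-1.52, SE 0.29, edgeR adjusted p = 0.00137) and S100a6 (-1.04, SE 0.21, edgeR adjusted p = 0.00246). From day 7 to day 28, 3 fell and none rose, where 6.4% of all genes were higher and 8.05% lower. S100a10 fell most (-2.08, SE 0.33, edgeR adjusted p = 0.000153), followed by S100a4 (-1.30, SE 0.25, edgeR adjusted p = 0.000876) and S100a11 (-1.11, SE 0.32, edgeR adjusted p = 0.0209). In each of these 6 falls, every later library was below every day 7 library in CPM. In the normalised signal deposited by the authors, S100a6 overlapped. There replicate 2 of day 21 (1657) was above replicate 2 of day 7 (1522). Such separation describes genes already called, and the share of all genes tested without overlap was not counted. The median log2 fold change of the members was -0.52, -0.76 and -0.92 on days 14, 21 and 28 against day 7, and that of all genes -0.01, 0.01 and -0.07. These comparisons share the day 7 libraries.

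S100a11 (chr3:93414382-93435293), a partner of annexin A1, was 259, 519, 389 and 462 CPM on day 0 and 723, 525, 510 and 312 CPM on day 7. It was 322, 459 and 356 CPM on day 14, 528, 192, 355 and 403 CPM on day 21 and 302, 202 and 213 CPM on day 28. Day 28 was the lowest day, and it overlapped days 0 and 21 but neither day 7 nor day 14. Its fall from day 7 to day 28 was lost without replicate 1 of day 7 or without replicate 2 or 3 of day 28, with edgeR adjusted p of 0.0812 to 0.0976. The pseudogenes Gm12854 and Gm7665 share 158 of its last 300 bases at 98.1% and 97.5% identity and had 0 counts, and the similar Gm57150 was not analysed here, so its counts are less certain. S100a16 (chr3:90444172-90450462) followed S100a11 with r = 0.76 over the 18 libraries and was called on no day. It lay between 58.1 and 102 CPM on day 0, 80.7 and 126 on day 7, 65.6 and 115 on day 14, 64.6 and 137 on day 21 and 43.0 and 99.1 on day 28. Only without replicate 1 of day 28 was it lower on day 28 than on day 7 (edgeR adjusted p = 0.043).

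S100a13 (chr3:90416091-90431912), which takes part in the release of Fgf1, was called in no comparison. It was 203 to 306 CPM on day 0, 216 to 518 on day 7, 270 to 300 on day 14, 242 to 426 on day 21 and 259 to 452 on day 28. The log2 fold change against day 0 was highest on day 28, at 0.49 (95% interval -0.11 to 1.08, edgeR adjusted p = 0.444). S100a1 (chr3:90418340-90421848), best known as a regulator of calcium cycling in muscle, was 70.0, 108, 85.0 and 130 CPM on day 0 and 41.0, 44.9, 25.9 and 168 CPM on day 7. Replicate 4 of day 7 was above every other library of the series and the other three below every day 0 library. With all libraries the log2 fold change was -0.48 (SE 0.41, edgeR adjusted p = 0.487), and without replicate 4 of day 7 it was -1.40 (edgeR adjusted p = 0.00512). It was 47.6 to 99.2 CPM on day 14, 55.6 to 87.2 on day 21 and 87.6 to 121 on day 28. Exons of S100a1 and S100a13 overlap on opposite strands, as do those of S100a13 and Chtop, and whether counting used the strand is not given in the sources used here, so reads in the overlaps cannot be told apart.

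S100b (chr10:76085090-76097159), a protein of glia, Schwann cells, fat cells and cartilage cells, was low on days 0, 7 and 28 and higher on days 14 and 21. It was 0, 15.5, 26.8 and 1.31 CPM on day 0 and 1.78, 10.8, 0 and 9.69 CPM on day 7. On day 14 it was 12.8, 101 and 73.1 CPM, and on day 21 it was 84.0, 52.5, 31.2 and 18.6 CPM. On day 28 it was 17.2, 0 and 3.20 CPM. All libraries of days 14 and 21 were above all of day 7, whereas both days overlapped day 0. The edgeR test with the filter called it in no comparison, with log2 fold changes of 3.40 (SE 1.01, adjusted p = 0.095) on day 14 and 3.01 (SE 0.97, adjusted p = 0.0614) on day 21 against day 7. By DESeq2 the latter passed (adjusted p = 0.0248), as it did by edgeR without replicate 1 of day 0, 14 or 28 or replicate 2 of day 28 (adjusted p of 0.0377 to 0.0477). Without the filter on low counts edgeR called S100b higher on days 14 and 21, both against day 0 (adjusted p = 0.00389 and 0.0161) and against day 7 (adjusted p = 0.000198 and 0.000555). With the shared number as a random block (voom), day 21 against day 0 also passed (limma adjusted p = 0.0499).

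Markers of cells that carry S100b did not all move with it. Mbp, a myelin protein of Schwann cells and other glia, had 0 counts on day 0, 8, 10, 11 and 6 on day 7, 2, 3 and 6 on day 14, 36, 25, 3 and 4 on day 21, and 2, 0 and 0 on day 28. Cdh19 and Gfap had none in any library. The fat cell gene Adipoq had 0 counts on days 0, 7 and 14 and 2 and 6 in all on days 21 and 28. Cfd, the fat cell protease adipsin, had 0, 0, 3, 174 and 129 counts on days 0, 7, 14, 21 and 28 and was the 1 of 2 tested adipocyte markers called higher on days 21 and 28 against day 0. Cfd passed the filter on low counts only through libraries of days 21 and 28. Its direction against day 0 was thus largely set by the filter. Day 28 was thus high for Cfd and low for S100b. Acan, a proteoglycan of cartilage chosen after its values were seen, had 1 to 18 counts on day 0, 6, 37, 15 and 67 on day 7, 28, 153 and 115 on day 14, 253, 115, 119 and 159 on day 21, and 89, 42 and 32 on day 28. Col2a1, the cartilage collagen, had 0 on day 0, 51, 42, 34 and 42 on day 7, 14, 147 and 71 on day 14, 726, 5, 0 and 1 on day 21, and 1, 76 and 0 on day 28. Both thus had counts on day 7, where S100b was low. The libraries with the most S100b, replicate 2 of day 14 and replicate 1 of day 21, were also those with the most striated muscle markers, 376 and 295 CPM in sum against 0 to 98.8 CPM in the others. The part of these cells in the S100b level was not tested.

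**Figure D4:**
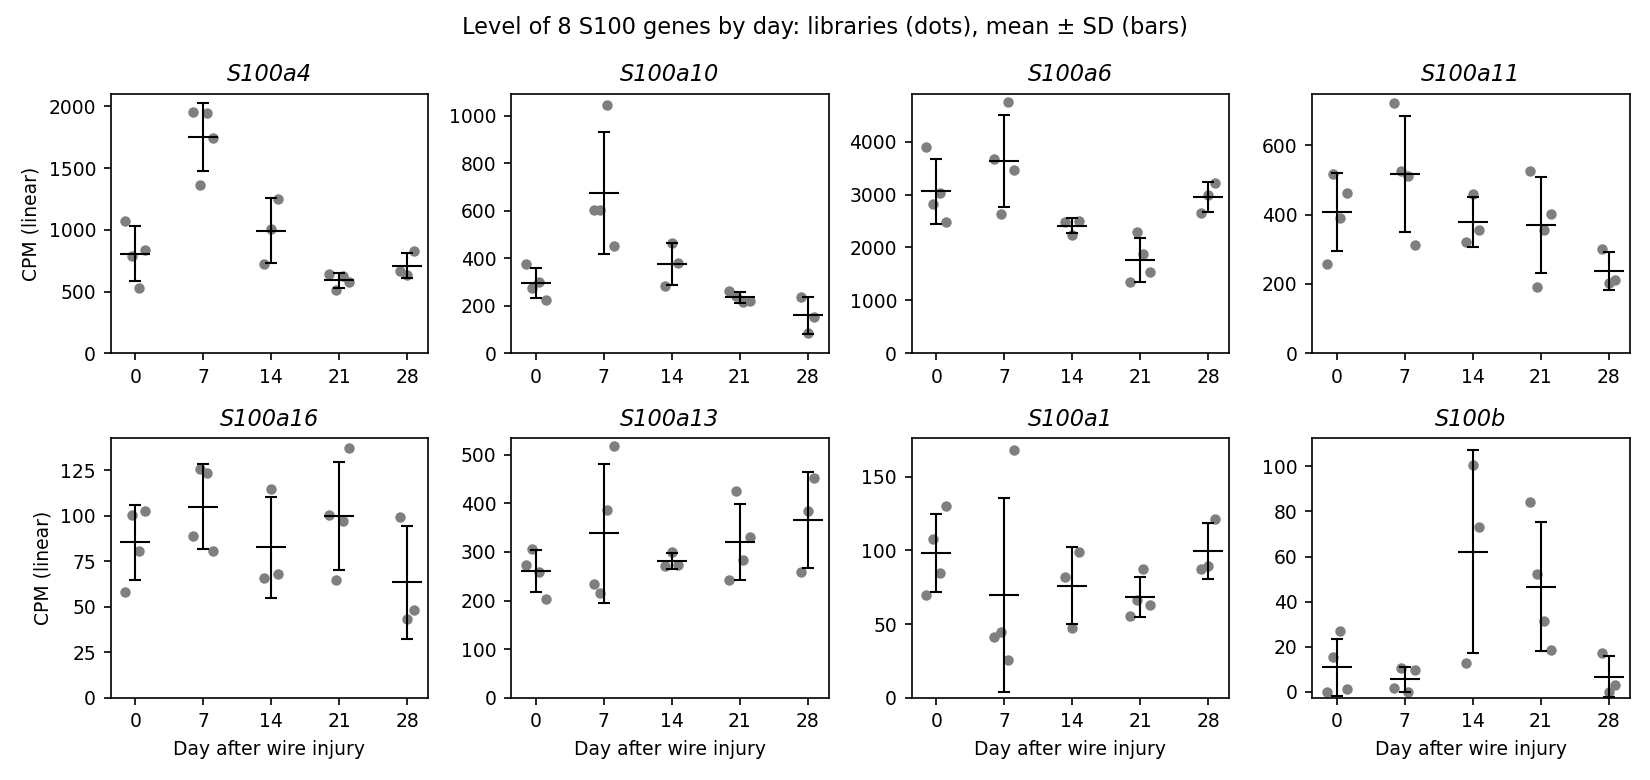
CPM (linear axis) of the 8 S100 genes other than S100a8 and S100a9 by day, with a dot per library and the mean ± SD as bars. S100a4 and S100a10 peak on day 7 with no overlap with day 0, S100a6 is lowest on day 21, S100a1 has 1 high library on day 7 (168 CPM), and S100b is highest on days 14 and 21.

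As a share of all counts, the 10 genes together made up 0.428% to 0.586% on day 0, 0.58% to 0.947% on day 7, 0.391% to 0.499% on day 14, 0.315% to 0.387% on day 21 and 0.416% to 0.564% on day 28. The day 21 libraries all lay below those of every other day, and day 7 overlapped day 0. S100a6 held 41.0% to 67.4% of these counts in a library.

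Genes of like pattern were, for S100a4, Hmga1b (r = 0.90), Rplp0 (r = 0.89) and Rps2-ps10 (r = 0.89), and for S100a10, Angptl4 (r = 0.88), Rpl10a (r = 0.88) and Snrpe (r = 0.87). Ribosomal protein genes or their copies were in both sets. For S100a6 they were Psmd13 (r = 0.91), Psmd3 (r = 0.86) and Mrps12 (r = 0.85), the first 2 of which encode proteasome subunits. For S100a11 they included Gm11808 (r = 0.91) and Nol10 (r = 0.89), and for S100a16 they were Psme3 (r = 0.83), Zfp110 (r = 0.82) and 4930526A20Rik (r = 0.81). S100a13 followed Sh3glb2 (r = 0.81), Pecam1 (r = 0.78) and Wrap53 (r = 0.78), S100a1 followed Eef2k (r = 0.85), Mettl7a1 (r = 0.84) and Galnt15 (r = 0.83), and S100b followed Ecrg4 (r = 0.79), Stap1 (r = 0.78) and Adck2 (r = 0.78). Each r is Pearson's over the 18 libraries on log2 CPM, over libraries that share their day, and is a description.

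Of the other S100 genes, S100a7a was the only one with enough counts to test. It was called against day 0 on no day, with a mean level of 42.6 CPM before injury and 32.4, 34.9, 81.6 and 89.9 CPM on days 7, 14, 21 and 28. It was higher on day 28 than at day 7, with a log2 fold change of 1.49 (SE 0.49, edgeR adjusted p = 0.0434), in a direction opposite to that of S100a4, S100a10 and S100a11 in the same comparison. S100a3, S100g and S100z had 4, 2 and 2 counts in 1 library each, S100a5, S100a7l2 and S100a14 had 0 in all, S100a17 was not analysed here, and S100a2, added after its values were seen, had at most 5 counts in a library.

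Known binding partners of S100 proteins changed in both directions. Of 15, 14 were tested, and on day 7 3 rose and 4 fell against day 0, with a median log2 fold change of 0.01. On that day 11.3% of all genes tested were higher and 8.53% lower. Anxa2, the partner of S100a10, rose by 0.96 on the log2 scale (SE 0.21, edgeR adjusted p = 0.0016) and fell from day 7 to day 21 by 0.95 (edgeR adjusted p = 0.005), as S100a10 did. Myh9, the non-muscle myosin bound by S100a4, rose by 1.27 (SE 0.22, edgeR adjusted p = 0.000175) on day 7 and was also higher on days 14 (1.26) and 21 (1.09), where S100a4 was called on neither. Anxa5 was also higher on days 7 and 21. Fgf1, released with S100a13, fell most, with a log2 fold change of -3.39 (SE 0.62, edgeR adjusted p = 0.000293), and Anxa11, Anxa6 and Ahnak were lower too. On day 14 Myh9 alone was called, on day 21 2 were higher and 2 lower (Ahnak and Anxa6), and on day 28 0 were called. Among all genes tested, 4.8%, 5.92% and 0.97% were higher on days 14, 21 and 28, and 1.42%, 2.93% and 0.369% lower.

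Of 11 receptors and signalling genes, 9 were tested. The shares of all genes called on each day are those given above for the binding partners. On day 7 Cd14, a co-receptor of Tlr4, rose from 6.45 to 70.2 CPM (log2 fold change 3.36, SE 0.64, edgeR adjusted p = 0.000456) and Cd36, a scavenger receptor, from 3.49 to 114 CPM (4.90, SE 0.83, edgeR adjusted p = 0.000131). Cd14 and Cd36 had only 20 and 11 counts in all on day 0, close to the floor. Both passed the filter through injured libraries where they are high, so their direction against day 0 was largely set by the filter. Mcam, an adhesion receptor, fell by 1.86 (SE 0.36, edgeR adjusted p = 0.000477). Cd14 was also higher on days 14 (3.17) and 21 (3.29), and on day 28 0 were called. Ager, the gene of RAGE, had 2 to 7 counts per day and was not tested, and Tlr4 passed on no day.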

How the data were processed

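MACE libraries of 18 carotid samples were analysed. The authors collapsed PCR copies by their molecular tags, ran Salmon 1.9.0 on mm39 and deposited the estimated counts (expected counts), which are whole numbers for each gene. The authors also deposited a normalised signal from DESeq2 1.36.0. Beside the library's factor, S100a6 carries a further one there of 0.878 to 1.12 and S100a9 one of 0.9997 to 1.003. The annotation release is not given in the sources used here. The 10 members and all gene lists were chosen with earlier results of these data known.

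The estimated counts were fitted over all 18 libraries in R 4.3.3 with edgeR 4.0.16 (filterByExpr by day with a minimum of 10, TMM, quasi-likelihood test), and p-values were adjusted by Benjamini-Hochberg across 10312 genes (threshold 0.05). SE is the log2 fold change over the root of F. A fold against a day at 3 counts or fewer per library is a lower bound against 3 counts. All 10 members are named, the partner and receptor lists by up to 3 genes per direction and day, and the 3 genes most like each member by Pearson r of log2 CPM (prior count 2). The results of 3 genes, and of the summed Schwann cell list, are not reported here. Positions are from GENCODE M39 and promoters from RefSeq.

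The main fit did not pair libraries. Over 33 pairs of libraries with equal replicate numbers the residuals' correlation had a median of -0.01, with 1 pair over 0.1. Over the 3 pairs of day 0 and day 21 libraries that share a number it had a median of 0.04, with 0 over 0.1. The voom fit estimated a correlation of 0.087 for these. Such values cannot say whether these pairs come from the same animals. Alternatives were DESeq2 1.42.0, other scalings, no filter, only the 2 days compared, blocks for the replicate number and for the shared number (limma 3.58.1), each library left out, and, chosen after seeing the data, the deposited normalised signal.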

Additional observations from a re-analysis of the deposited data

Results flagged for a closer look

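Among the 30 sets of 4 libraries (10 genes on 3 days), 5 held a library that stood apart from the other 3 by Dixon's test. The rate of about 1 in 20 sets flagged by chance assumes normal values and independent sets. It cannot be applied here, where the flagged day 0 sets are mostly 0 and both day 21 flags fall on replicate 3. S100a1 on day 7 was 168 CPM in replicate 4, against 25.9 to 44.9 CPM in the others. On day 21, S100a8 was 242 CPM and S100a9 was 240 CPM in replicate 3, against at most 7.10 and 4.73 CPM. On day 0, S100a8 was 2.39 CPM in replicate 2 and S100a9 was 2.62 CPM in replicate 4, which is 2 counts each against 0 in the others, within the floor of 3 counts.

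The change against day 0 differed between injured days, by the edgeR test of the later day against day 7 itself. From day 7 to day 21 the log2 difference was -1.57 for S100a4 (adjusted p = 0.000111), -1.04 for S100a6 (adjusted p = 0.00246) and -1.52 for S100a10 (adjusted p = 0.00137). From day 7 to day 28 it was -1.30 for S100a4 (adjusted p = 0.000876), -2.08 for S100a10 (adjusted p = 0.000153) and -1.11 for S100a11 (adjusted p = 0.0209).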

How the results depend on the processing

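No called change reversed its direction under any alternative. Of 70 results (10 genes in 7 comparisons), 13 were called. The 4 rises of day 7 were called in all 25 alternatives, though the filter largely set the direction of S100a8 and S100a9 against day 0. The counts of members called changed as follows. Without a filter on low counts they were 3 on day 14 and 2 on day 28 against day 0 (0 and 0 before), 4 on day 21 against day 0 (3 before), and 3, 6 and 5 on days 14, 21 and 28 against day 7 (0, 3 and 3 before). DESeq2 gave 1 on day 14 and 4 on day 21 against day 7. With only the 2 days in the fit, day 21 against day 0 gave 1 in place of 3, because S100a8 and S100a9 then failed the filter. With the replicate number as a block it also gave 1, and day 28 against day 7 gave 4. With the shared number as a random block (voom), days 14, 21 and 28 against day 7 gave 1, 4 and 5 and day 21 against day 0 gave 2 (S100a8 and S100a9 lost, S100b gained), and the median of all genes moved by up to 0.15 on the log2 scale. Why the other counts moved was not tested. Leaving out 1 library in turn gave 4 to 5 calls on day 7, 0 to 1 on day 14, 0 to 3 on day 21 and 0 to 3 on day 28 against day 0, and 0 to 0, 3 to 5 and 2 to 4 on days 14, 21 and 28 against day 7. The 1 on day 14 and the 5 on day 21 arose without replicate 3 of day 21, the 0 on day 21 without replicate 1 of day 0, and the 3 on day 28 without replicate 1 of day 28. In the deposited normalised signal, ratios of day means moved by up to 0.20 (log2) for S100a6 and 0.09 for the others, and S100a6 on day 28 against day 0 went from -0.05 to 0.15, not called before. Genes with few counts, such as S100b, leave wide intervals at this depth.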
